A study of Rattus norvegicus with 13 samples.

Results

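The comparison described here sets METH (methamphetamine, a psychostimulant that releases dopamine and serotonin) given as a pretreatment and again as a binge against no drug at all. The MM arrays (METH pretreatment, METH challenge; replicates 1, 2 and 3) were compared with the SS arrays (saline pretreatment, saline challenge; replicates 2, 3 and 4). They were chosen by their labels alone, so 6 of the 13 arrays used here enter the contrast, and all differences are MM minus SS. All rats were male Sprague-Dawley, 8 weeks of age and 330 to 370 g. Pretreatment was saline or escalating METH, injected intraperitoneally over 3 weeks. The challenge came 72 h later as 8 hourly injections, of saline or of 5 mg/kg METH each, and the rats were killed 24 h after it. The injection schedule in the labels implies a shorter gap than the stated 72 h, since it has the last pretreatment on a Monday and the challenge on the Wednesday of that week. The remaining 7 arrays, 3 of SM (saline pretreatment, METH challenge) and 4 of MS (METH pretreatment, saline challenge), shared in the estimate of the spread. Tissue labels name the midbrain region that holds substantia nigra and VTA (ventral tegmental area), written SN/VTA, whereas the labelling protocol calls the RNA striatal. Each array was taken as 1 rat, and p-values measure the spread between these arrays.

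The SN/VTA holds the cell bodies of midbrain dopamine neurons, whose axons reach the striatum and whose terminals are the known target of METH toxicity. The block of tissue also holds GABA neurons, glia, vessels and fibre tracts, and raphe serotonin neurons lie close by. Exposure to low doses before a toxic dose is called preconditioning, and the MM group is the preconditioned and then challenged state, while SS is drug-naive. The contrast is therefore the net result of both exposures and does not separate them.

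The tissue label was checked against its markers. Th, the rate-limiting enzyme of dopamine synthesis, gave 525, 1440 and 225 units in the SS arrays and 1240, 418 and 484 in the MM arrays, and Slc6a3, the dopamine transporter, gave 223, 1020 and 175 against 771, 375 and 139. Dopamine neuron markers were present on all 6 arrays but varied several-fold within each group, and the groups overlapped. None of the 18 tested dopamine neuron markers changed (median log2 difference 0.03). Tph2, the enzyme of serotonin synthesis in the brain, gave 2560, 3150 and 840 units in SS and 3050, 3300 and 2360 in MM. All 9 serotonin neuron markers averaged higher in MM (median 0.32), none changed, and the low array was SS replicate 4, where their summed signal was 3850 units against 8990 to 11100 on the other 5 arrays. Actb and Gapdh, used as level controls, differed by -0.04 and 0.03 on the log2 scale. MM replicate 3 stood apart in the other direction, with a summed signal of 3010 units over 11 tested markers of thalamus and cerebellum against 1870 to 2070 on the other 5 arrays. Most of that excess was Calb2, a calcium-binding protein of interneurons, at 1700 against 1020 to 1170 units, and Zic2, whereas Tcf7l2, a factor of thalamic neurons, was lowest of the 6 on that array (25.2 units) and highest on SS replicate 4 (179 units). Results that rest on SS replicate 4 or MM replicate 3 are given with and without them below.

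Signal is given in units in which 10 is the level below which the normalization software replaced the median of a probe, and a value of 0 stands for a reading at the lower limit of the deposited ratios. A probe is called changed where the groups differed at least 1.7-fold at an unadjusted p under 0.05 in the limma fit. The terms "rose" and "fell" are used only of such probes. Both thresholds were those of the study, which applied them in other software and to other comparisons (MS with SS, SM with SS and MM with MS). Of 17140 probes tested, 276 changed (1.61%), 138 up and 138 down (0.805% each way), or 175 up and 109 down on the ratios as deposited. An unadjusted p under 0.05 was reached by 714 probes (4.17%), 369 higher (2.15%) and 345 lower (2.01%) in MM, and 0 probes had an adjusted p under 0.05, the smallest being 0.0842, so no single gene below stands after correction over all probes. The median log2 difference of all tested probes was 0.01, and 52.8% averaged higher in MM. Every MM array lay above every SS array for 5.55% of them and below for 4.56%. Genes named for a small p or after their values were seen are apart more often through that choice.

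**Figure D1:**
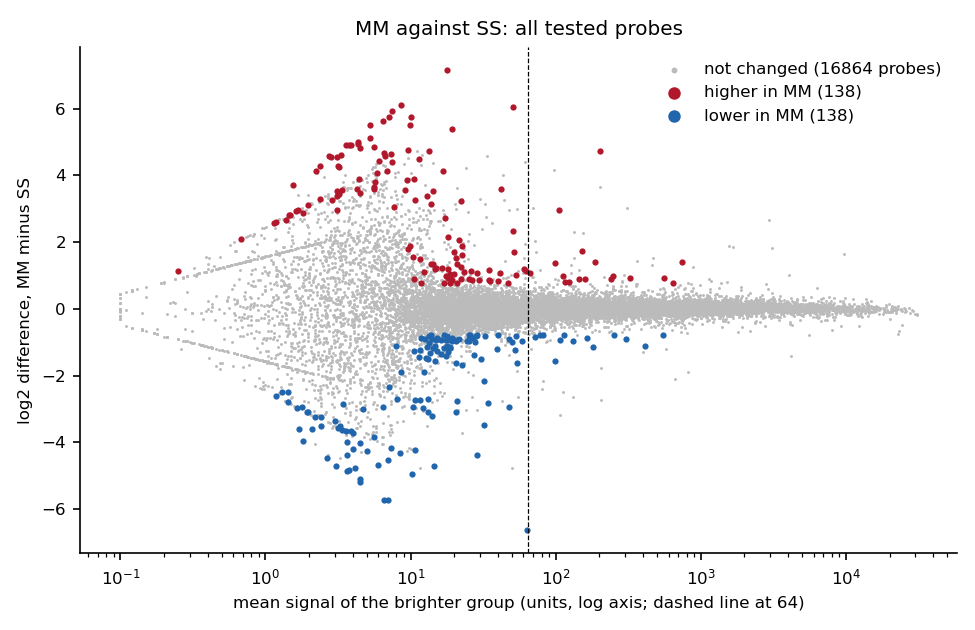
Log2 difference between MM and SS for each tested probe (vertical axis) against the mean signal of the brighter group (horizontal log axis in units, values under 0.1 drawn at 0.1). Changed probes (red higher, blue lower in MM) lie mostly left of the dashed line at 64 units, where 30 of the 276 lie to its right.

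Most calls were on dim probes. With a brighter-group mean under 10 units 107 of 2747 probes changed (3.90%), against 112 of 3373 at 10 to 32 units, 27 of 2140 at 32 to 64 units and 30 of 8880 (0.338%) at 64 units and over. In the dimmest class the within-group SD had a median of 2.71 units, which is of the same size as many of the signals there. All SS arrays were at the limit for 41 changed probes and all MM arrays for 26. The account below therefore starts from genes with a clear signal and gives the dim ones as signals.

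The interferon-stimulated genes are switched on by type I and type II interferons through STAT and IRF factors, and many encode antiviral proteins or chemokines. They formed the list with most changed members, all lower in MM. Of 40 tested members 8 fell (20%) and 0 rose, against 0.805% of all tested probes each way. Averages were lower in 33 and higher in 7, and the median was -0.18. The decrease was not general. Widely used members of the list differed little on average, among them Isg15 (0.12), Mx1 (-0.08), Mx2 (-0.15), Irf9 (-0.02) and Ifitm3 (0.01). In 11 of the 40 (27.5%) every MM array lay below every SS array, against 4.56% of all tested probes. The list was drawn up with earlier results of these data known, and several members, Irf7 among them, appear in the account the study gave of these arrays, so the count is not independent evidence of direction. Irf7, the transcription factor that amplifies the type I interferon response, gave 104, 103 and 114 units in SS and 45.7, 52.6 and 73.2 in MM. The 3 SS arrays sat close together and all MM arrays lay below them (log2 difference -0.94, SE 0.32, adjusted p = 1).

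Promoter sequences of 3 genes that fell are shown because they hold letters of the interferon-stimulated response element. They are from RefSeq (build GRCr8) and run from 250 bases before to 50 after the start of the gene, 5′ to 3′ on the strand of the gene, with each run of GAAA, any 2 bases and GAAA again, searched on both strands, in capitals. The windows are chr1:205799974-205800273 (minus strand) for Irf7, chr2:234005477-234005776 (plus) for Gbp2 and chr6:21940904-21941203 (plus) for Eif2ak2.
Irf7: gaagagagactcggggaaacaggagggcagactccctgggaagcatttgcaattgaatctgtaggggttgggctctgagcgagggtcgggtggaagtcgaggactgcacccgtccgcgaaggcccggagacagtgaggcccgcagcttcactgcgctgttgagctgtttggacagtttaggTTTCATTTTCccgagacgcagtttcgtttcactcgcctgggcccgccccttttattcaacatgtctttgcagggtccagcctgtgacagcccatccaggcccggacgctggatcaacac
Gbp2: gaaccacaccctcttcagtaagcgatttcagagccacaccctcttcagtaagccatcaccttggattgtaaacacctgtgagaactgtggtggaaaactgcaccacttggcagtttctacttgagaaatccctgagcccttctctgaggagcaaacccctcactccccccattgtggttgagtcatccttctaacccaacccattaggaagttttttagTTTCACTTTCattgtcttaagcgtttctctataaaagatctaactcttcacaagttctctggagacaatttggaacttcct
Eif2ak2: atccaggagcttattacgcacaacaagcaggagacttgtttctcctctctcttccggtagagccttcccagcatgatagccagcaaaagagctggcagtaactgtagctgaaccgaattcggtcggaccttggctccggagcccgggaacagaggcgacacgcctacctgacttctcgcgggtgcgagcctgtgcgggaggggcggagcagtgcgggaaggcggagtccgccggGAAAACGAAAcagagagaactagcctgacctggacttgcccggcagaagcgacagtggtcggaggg
The first base of the match lies at -69 in Irf7, -31 in Gbp2 and -16 in Eif2ak2. Of the 8 members that fell, 7 have a promoter in the table and 3 of these 7 hold the motif. Over all tested members of the list it was in 19 of 32 promoters (59.4%), and over all promoters of this length in 1312 of 33469 (3.92%). Cxcl9, Cxcl11, Psmb9 and Slfn4 held no such letters in this window.

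Gbp2, a guanylate-binding protein of the interferon-gamma response, gave 103, 131 and 109 units in SS and 72.0, 72.7 and 56.0 in MM (-0.78, SE 0.24, adjusted p = 0.951). Rtp4, an interferon-induced chaperone of membrane receptors, gave 133, 168 and 194 against 79.0, 99.6 and 90.3 (-0.87, SE 0.29, adjusted p = 1). For both genes the lowest SS array was above the highest MM array. Psmb9, a subunit of the immunoproteasome, gave 53.6, 52.3 and 53.6 against 31.3, 41.9 and 21.6 (-0.81, adjusted p = 1). Slfn4, a member of the Schlafen family, fell from 54.6 ± 17.6 to 18.2 ± 8.54 units (SD, n = 3 each; log2 difference -1.63, adjusted p = 0.951). Eif2ak2, the double-stranded RNA-activated kinase PKR, fell from 25.4 ± 3.28 to 13.9 ± 4.78 units (-0.92, adjusted p = 0.853). None of these 3 genes overlapped between groups. Cxcl9 and Cxcl11, chemokines that draw T cells and are named here after their values were seen, were dim and uneven. Cxcl9 gave 19.6, 84.3 and 38.2 units in SS and 5.31, 8.29 and 3.26 in MM, and Cxcl11 gave 13.5, 33.8 and 38.3 against 2.90, 5.79 and 0. Ifi35, also named after its values were seen, averaged 118 ± 15.4 in SS and 91.6 ± 8.92 in MM, short of 1.7-fold.

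**Figure D2:**
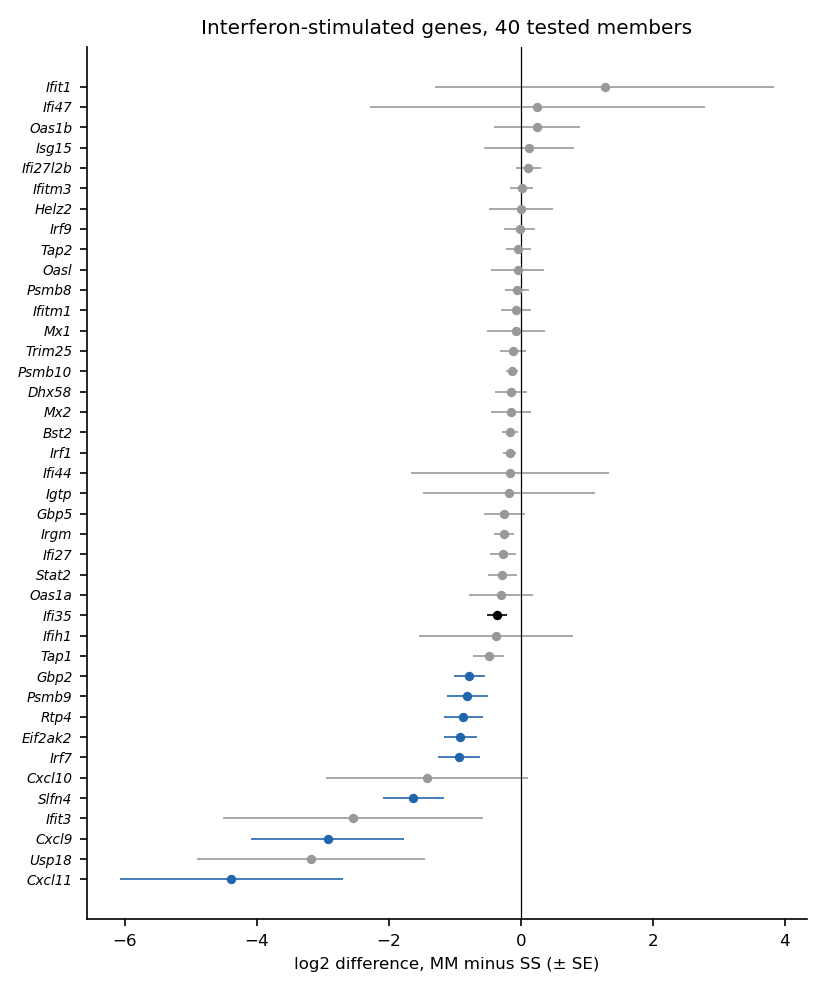
Log2 difference between MM and SS with its SE for the 40 tested interferon-stimulated genes. Blue points are the 8 members that fell, black points have an unadjusted p under 0.05 without a 1.7-fold difference, and grey points did not pass. Among the members that fell, the largest differences, in Cxcl11 (-4.39) and Cxcl9 (-2.93), are those of dim probes.

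The calls in this list depended in part on single arrays. Without SS replicate 4 the number of fallen members was 4, and without MM replicate 3 it was also 4, while the list median without MM replicate 3 was -0.31. Gbp2 missed 1.7-fold without SS replicate 3 (-0.68) and without MM replicate 3 (-0.65), and Rtp4 missed it without SS replicate 4 (-0.74). Psmb9 was lost without SS replicate 4 (-0.80, unadjusted p over 0.05) and without MM replicate 3 (-0.55). Eif2ak2 missed 1.7-fold without MM replicate 2 (-0.68). Cxcl9 was lost without SS replicate 3 or 4 or MM replicate 1 or 3 (-2.96 to -2.39), and Cxcl11 without SS replicate 3 or 4 or MM replicate 3 (-4.19 to -2.66). Irf7 and Slfn4 kept their calls whichever of the 6 arrays was left out. The summed signal of the 40 members ran from 7580 to 8430 units in SS and from 6470 to 7920 in MM, so the sums overlapped. Of 13 blood cell markers 9 averaged lower in MM as well, with summed signals, mostly of beta globin, of 29400 to 35300 against 15900 to 28600 units. Of the 21 tested microglia markers 0 changed (median 0.04, sums of 10200 to 10400 against 10300 to 11700). That count is near the share of all tested probes (1.61%). The part of these cells in the interferon result was not tested. Beside the MM and SS values, Irf7 averaged 55.2 units in SM and 175 in MS, Gbp2 45.8 and 107, and Rtp4 106 and 201. The comparisons with SM and MS share arrays with the comparison of MM and SS.

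Mmp14, a membrane-bound matrix metalloproteinase that degrades collagen and activates other proteases, showed one of the clearest decreases. It gave 427, 375 and 435 units in SS and 168, 198 and 204 in MM. The highest MM array was far below the lowest SS array (-1.12, SE 0.29, adjusted p = 0.800), and the call held whichever of the 6 arrays was left out (-1.19 to -1.04). The SM arrays averaged 133 ± 59.3 and the MS arrays 467 ± 34.8 units. It was the only changed member of 21 tested metalloproteinases and inhibitors (median -0.04).

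Sox4, a transcription factor of neural and glial progenitors, gave 121, 225 and 195 units in SS and 73.4, 66.7 and 101 in MM. All MM arrays lay below all SS arrays (-1.14, SE 0.22, adjusted p = 0.546). SM averaged 165 ± 11.9 and MS 126 ± 15.4 units, so MM was the lowest of the 4 groups. The difference between MM and SM itself was -1.06 (SE 0.22, adjusted p = 1), and between MM and MS -0.66 (SE 0.21, adjusted p = 0.999). The call against SS held whichever of the 6 arrays was left out, from -1.41 to -0.96.

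Lxn, latexin, a carboxypeptidase inhibitor, gave 516, 518 and 624 units in SS and 352, 492 and 191 in MM (-0.78, SE 0.27, adjusted p = 1). SM averaged 558 ± 38.0 and MS 669 ± 66.7 units. The 3 MM arrays were spread widely, and without MM replicate 3 the difference was -0.40, while without SS replicate 4 it was -0.69. Jdp2, a repressor of AP-1 activity, fell from 81.2 ± 10.6 to 47.5 ± 9.23 units (log2 difference -0.79, adjusted p = 1). Its call was lost without SS replicate 2 (-0.79, unadjusted p over 0.05), SS replicate 4 (-0.69) or MM replicate 3 (-0.61).

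Some markers of blood cells also fell. Pf4, platelet factor 4, gave 285, 247 and 382 units in SS and 165, 174 and 141 in MM (-0.91, SE 0.21, adjusted p = 0.76). Alas2, the heme synthesis enzyme of red cell precursors, gave 40.9, 33.1 and 17.9 against 9.49, 6.89 and 16.1 (-1.51, SE 0.34, adjusted p = 0.76). In both genes every MM array was below every SS array. That held for 46.2% of the 13 tested blood cell markers, both beta globin probes among them, and for 4.56% of all tested probes. S100a8, a calcium-binding protein of neutrophils, averaged 17.7 ± 5.54 in SS and 6.81 ± 3.07 in MM (-1.42, adjusted p = 1), a call that was lost on leaving out SS replicate 2, 3 or 4 or MM replicate 1 or 3 (-1.59 to -1.18). Of 13 tested blood cell markers these 3 fell (23.1%), 0 rose and the median was -0.43. Over all tested probes 0.805% fell. Hbb and Hbb-b1, which encode near-identical beta globins whose signals may be shared, were named after their values were seen. Hbb gave 25800, 22900 and 21200 units in SS and 13700, 11200 and 20800 in MM (-0.66, SE 0.20, adjusted p = 0.951), short of 1.7-fold, and MM replicate 3 lay next to the SS arrays. The summed signal of the 13 markers ran from 29400 to 35300 units in SS and from 15900 to 28600 in MM, and nearly all of it was Hbb and Hbb-b1. The other 11 markers, a split chosen after seeing the data, summed to 581 to 630 units in SS and 402 to 412 in MM. Pf4, already counted as fallen, was the brightest of them and carried much of that gap. The sum without Pf4 was not taken, so the gap does not show that the other markers fell together. Of the 11, 7 averaged lower and 4 higher. Slc4a1, Cd3e, Ms4a1 and Ppbp averaged higher in MM, without passing the test. In bulk tissue fewer cells of a type and less RNA per cell cannot be told apart. Pf4 missed 1.7-fold without SS replicate 4 (-0.74).

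Cd93, a receptor of endothelial cells, gave 238, 241 and 281 units in SS and 139, 196 and 117 in MM (-0.78, SE 0.23, adjusted p = 0.951). It missed 1.7-fold without SS replicate 4 (-0.71), MM replicate 1 (-0.74) or MM replicate 3 (-0.61). Kcnj8, a potassium channel subunit of pericytes, gave 60.7, 71.6 and 84.3 against 45.8, 32.2 and 44.9 (-0.83, adjusted p = 1), and was lost without SS replicate 3 (-0.83, unadjusted p over 0.05), SS replicate 4 (-0.71) or MM replicate 2 (-0.66). Neither gene overlapped between the groups, but their lists did not move with them. Of 18 tested endothelial markers 0 changed (median 0.05), near the 1.61% of all tested probes. Kcnj8 was the only changed member of 10 pericyte and smooth muscle markers (median -0.13). Ocln, a tight junction protein of the endothelium, averaged 55.8 ± 15.6 in SS and 82.0 ± 4.25 in MM, every MM array above every SS array and below 1.7-fold.

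Of 23 tested markers of meninges and choroid plexus, Col1a1 and Kl fell (8.7%), 0 rose and the median was -0.16. Over all tested probes 0.805% fell. Col1a1, a fibrillar collagen chain, gave 49.7, 41.3 and 26.4 units in SS and 17.6, 28.8 and 8.74 in MM (-1.21, adjusted p = 0.976), with 1 MM array above the lowest SS array, and without MM replicate 3 it missed 1.7-fold (-0.75). Kl, which encodes the co-receptor klotho, was at 3.64, 2.08 and 3.47 units in SS and 0, 0 and 0.117 in MM, all under 10 units, and the call was lost without SS replicate 2 or 4 or any 1 of the MM arrays. Igf2, a growth factor made by meninges and choroid plexus and named after its values were seen, averaged 4130 ± 716 in SS and 3030 ± 216 in MM (-0.44, adjusted p = 0.996).

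**Figure D3:**
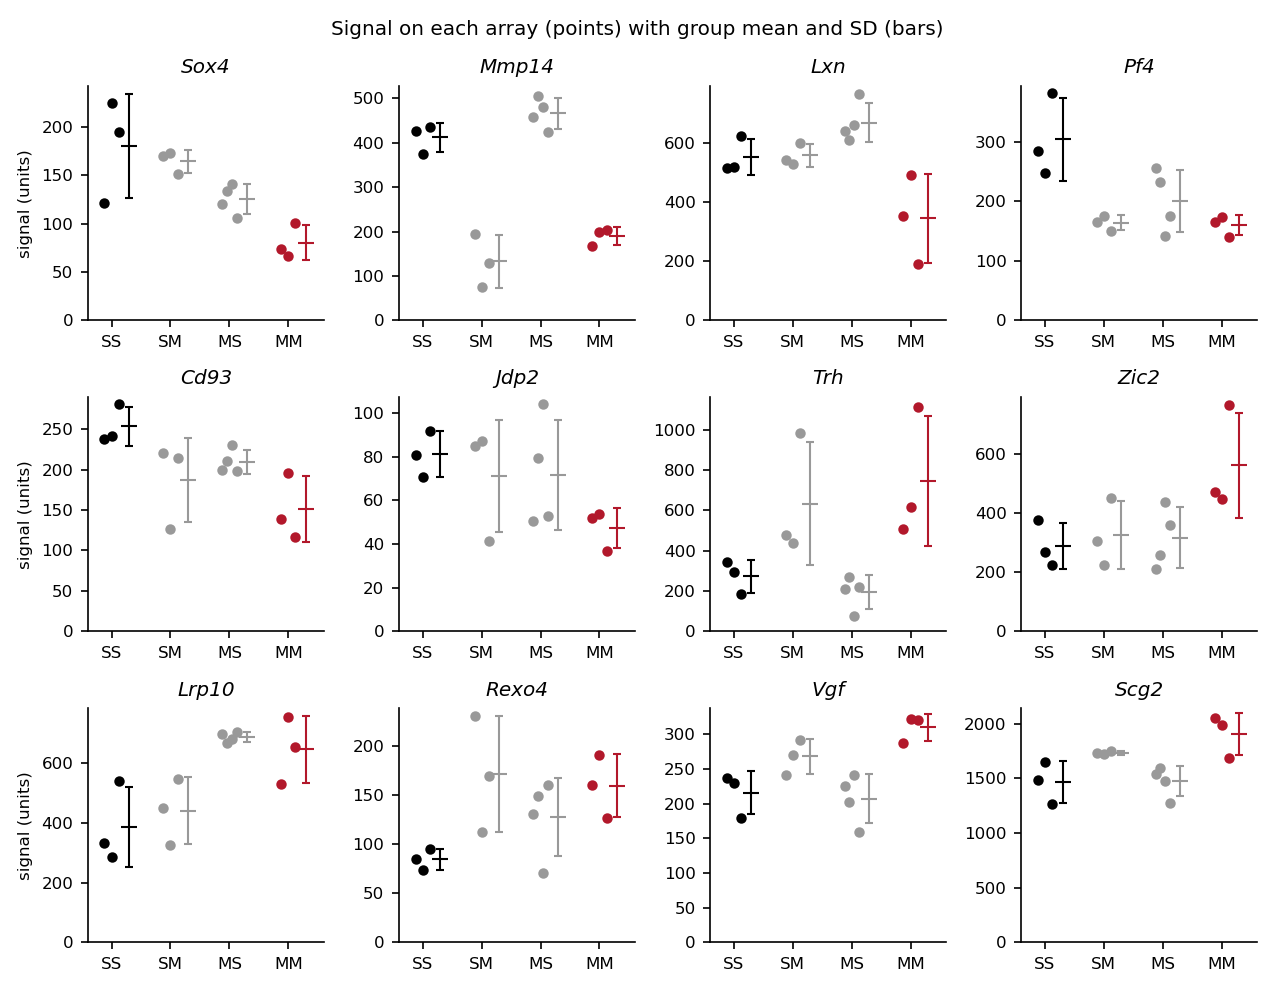
Signal in units on each array (points) with the group mean and SD (bars) for 12 genes, the comparison groups SS in black and MM in red and the other groups in grey. Sox4 is lowest in MM (66.7 to 101 units), Mmp14 is low in both SM and MM, and Trh is highest on MM replicate 3 (1110 units).

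2 neuropeptide genes rose. Trh, thyrotropin-releasing hormone, which also acts as a transmitter outside the hypothalamus, gave 342, 294 and 184 units in SS and 508, 615 and 1110 in MM. All MM arrays were above all SS arrays (1.41, SE 0.48, adjusted p = 1). SM averaged 632 ± 305 and MS 195 ± 83.1 units. The call was lost without SS replicate 4 (1.14) and without MM replicate 3 (1.08), the unadjusted p then being over 0.05. Of 27 tested neuropeptide genes and genes of their processing, Trh and Gip rose (7.41%), 0 fell and the median was 0.08. Over all tested probes 0.805% rose. The largest differences downward, named after their values were seen, varied too much among SS arrays to pass the test. Pth2, a ligand of the parathyroid hormone 2 receptor, gave 339, 99.7 and 179 units in SS and 37.8, 48 and 84.5 in MM (-1.77, SE 1.08), every MM array below every SS array. Cartpt, the precursor of CART peptides, gave 1180, 1070 and 189 against 304, 144 and 108 (-1.89, SE 0.98), and Ucn, urocortin, 124, 100 and 19.2 against 22.4, 6.53 and 10.7 (-2.41, SE 1.48). In both of these SS replicate 4 lay among the MM arrays. Gip, an incretin hormone, was at 0 on all SS arrays and at 5.39, 6.09 and 4.31 units in MM, too dim for a fold.

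3 further neuropeptide or secretory granule genes differed with an unadjusted p under 0.05 without reaching 1.7-fold. Vgf, a nerve growth factor-inducible granule protein, gave 237, 230 and 180 units in SS and 288, 322 and 321 in MM (0.53, SE 0.16, adjusted p = 0.951). Scg2, secretogranin II, gave 1490, 1650 and 1270 against 2050, 1990 and 1690 (0.38, SE 0.13, adjusted p = 1). Bdnf, a neurotrophin that supports dopamine neurons, gave 129, 124 and 141 against 145, 176 and 162 (0.29, SE 0.11, adjusted p = 1). In each of the 3 every MM array exceeded every SS array, which held for 5.55% of all tested probes. Vgf and Scg2 were named after their values were seen.

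The other bright increases were in genes of unlike roles. Lrp10, a lipoprotein receptor family member, gave 333, 285 and 539 units in SS and 530, 754 and 653 in MM, and the groups overlapped (0.78, SE 0.24, adjusted p = 0.951). It missed 1.7-fold without SS replicate 2 (0.70), SS replicate 3 (0.59) or MM replicate 2 (0.66), and averaged 440 ± 112 in SM and 685 ± 17.5 in MS. Rexo4, an exonuclease-domain protein, gave 85.4, 73.7 and 95.1 units in SS and 161, 191 and 127 in MM (log2 difference 0.90, adjusted p = 1), and was lost without MM replicate 2 (0.76). Tmod4, a tropomodulin that caps actin filaments, gave 57.0, 16.7 and 31.2 against 74.7, 54.6 and 69.9 (1.08, adjusted p = 1), and the groups overlapped. Tmod4 was lost without SS replicate 3 (0.64) or MM replicate 1 (0.99). Fam111a, a protease linked to DNA replication, was at 172 units on 1 SS array and 0 on the other 2, and at 181, 327 and 97.2 in MM. It was also at the limit on 2 of the 3 SM arrays and averaged 199 units in MS, and its call was lost on leaving out SS replicate 3 or 4 or any 1 of the MM arrays (3.57 to 5.18).

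Zic2, a zinc finger factor of dorsal and caudal brain regions that also marks neighbouring tissue, gave 375, 269 and 224 units in SS and 470, 448 and 764 in MM (0.94, SE 0.33, adjusted p = 1). Every MM array was above every SS array, MM replicate 3 most of all. SM averaged 326 ± 115 and MS 316 ± 102 units, and MM exceeded SM by 0.79 (SE 0.33, adjusted p = 1). The call was lost without SS replicate 4 (0.77) and without MM replicate 3 (0.70). It was the only changed member of the 11 thalamus and cerebellum markers (median 0.36). Their sum, to which Zic2 itself contributes, was highest on MM replicate 3. Neurod6, a factor of cortical and hippocampal neurons, gave 78.7, 37.9 and 39.4 units in SS and 107, 97.3 and 177 in MM (1.32, adjusted p = 1). The 10 tested cortex and hippocampus markers summed to 386 to 432 units in SS and 450 to 608 in MM, MM replicate 3 again highest. The part of neighbouring tissue in these results, Trh included, was not tested.

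Clock genes form a feedback loop in which BMAL1, paired with CLOCK or NPAS2, drives Per and Cry genes, whose products hold BMAL1 back, while the nuclear receptors REV-ERB and ROR set Bmal1 itself. None of the 14 tested clock genes changed 1.7-fold, and 4 differed with an unadjusted p under 0.05, 2 in each direction. Over all tested probes 2.15% were higher and 2.01% lower in MM at that threshold. Bmal1 had the second smallest p of the genes named here, after Hyal5, at 99.6, 107 and 86.8 units in SS and 65.1, 62.5 and 64.8 in MM. The MM arrays were within a few units of each other and all below SS (-0.60, SE 0.10, adjusted p = 0.288). Cry1, a repressor of the loop, gave 353, 379 and 466 against 526, 612 and 559 (0.51, SE 0.12, adjusted p = 0.76). Per2, also a repressor and named after its values were seen, gave 463, 554 and 816 against 942, 1170 and 861 (0.72, SE 0.23, adjusted p = 0.976). For both repressors every MM array was above every SS array. In the whole clock list 14.3% of tested members lay fully above and 28.6% fully below, against 5.55% and 4.56% of all tested probes.

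Npas2, named after its values were seen, averaged 34.4 ± 9.22 in SS and 25.1 ± 2.71 in MM (-0.43, adjusted p = 1), the arrays just clear of each other. Nr1d1, which encodes REV-ERB alpha, averaged 454 ± 33.4 and 381 ± 30.4 units, Per1 703 ± 117 and 674 ± 93.6, and Dbp, an output gene of the loop, 74.0 ± 8.28 and 76.0 ± 2.64. Across all 17 alternative settings and left-out arrays, Bmal1 stayed between -0.69 and -0.50 and Cry1 between 0.42 and 0.62, each with an unadjusted p under 0.05. Per2 stayed between 0.54 and 0.95, and passed 1.7-fold in 6 of the 17. In the other groups Bmal1 averaged 70.4 ± 4.94 in SM and 78.8 ± 4.11 in MS, Cry1 537 ± 38.2 and 479 ± 34.3, and Per2 846 ± 33.1 and 768 ± 206. MM was the most distant from SS in all 3 genes. The difference between MM and SM was -0.13 (SE 0.10, adjusted p = 1) for Bmal1 and 0.07 (SE 0.12, adjusted p = 1) for Cry1. The times of day at which tissue was taken were not compared, and their part was not tested.

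Promoters of Bmal1 and Per2 are printed because these genes differed in opposite directions and each holds letters of a clock element. They are RefSeq windows of the same kind, chr1:176766078-176766377 (plus strand) for Bmal1 with TAGGTCA, the core of the ROR and REV-ERB element, in capitals, and chr9:99496944-99497243 (minus) for Per2 with TTATGNAA, the D-box letters, in capitals.
Bmal1: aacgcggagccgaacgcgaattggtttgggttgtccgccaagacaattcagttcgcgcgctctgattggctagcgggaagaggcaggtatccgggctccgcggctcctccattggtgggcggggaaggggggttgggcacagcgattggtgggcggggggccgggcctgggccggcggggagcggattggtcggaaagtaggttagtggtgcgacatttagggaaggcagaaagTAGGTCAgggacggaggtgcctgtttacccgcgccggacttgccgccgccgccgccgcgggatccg
Per2: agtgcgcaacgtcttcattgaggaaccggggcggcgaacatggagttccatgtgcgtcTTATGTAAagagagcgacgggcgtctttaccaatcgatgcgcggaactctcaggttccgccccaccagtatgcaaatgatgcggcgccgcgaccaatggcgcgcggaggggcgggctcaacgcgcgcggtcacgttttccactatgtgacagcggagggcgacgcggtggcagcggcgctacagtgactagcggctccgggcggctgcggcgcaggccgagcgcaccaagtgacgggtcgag
Among the 12 tested clock genes with a promoter in the table TAGGTCA was in 1, TTATGNAA in 1 and CACGTG, the E-box bound by BMAL1, in 2, all searched on both strands. Of 33469 promoters the shares were 2.63%, 3.66% and 6.42%.

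**Figure D4:**
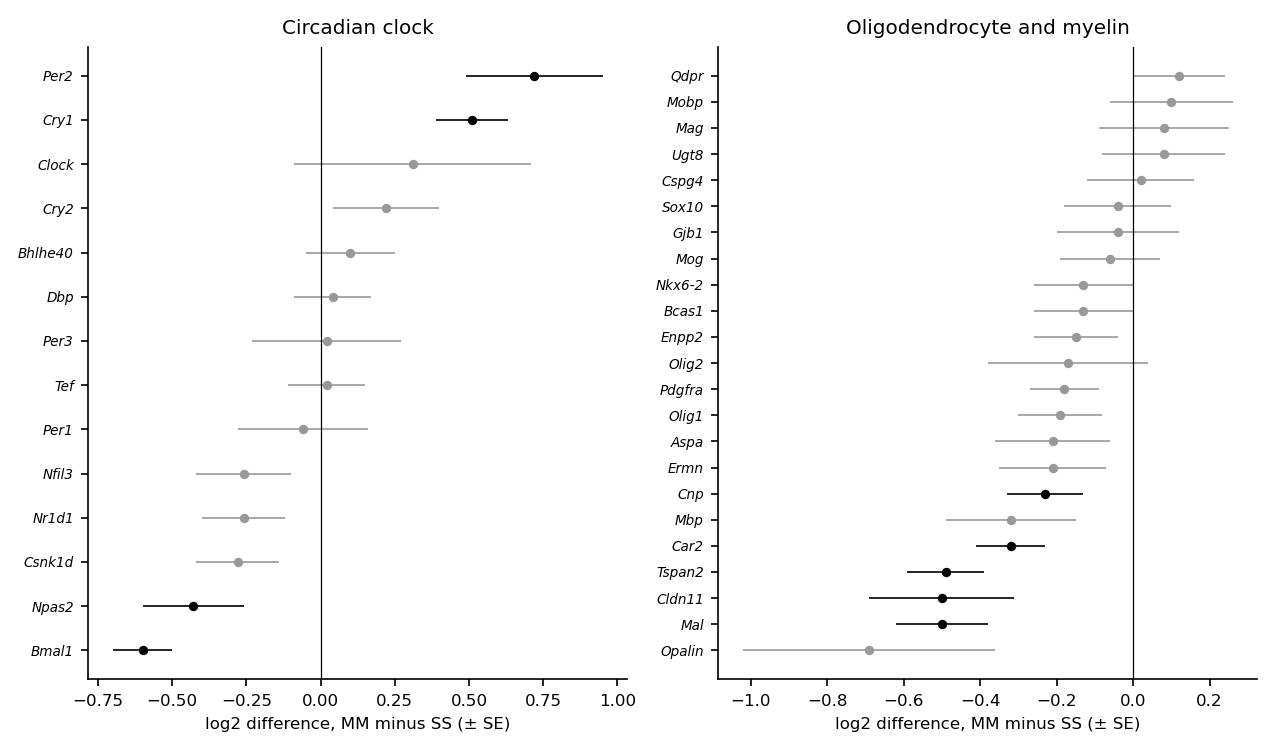
Log2 difference between MM and SS with its SE for the 14 tested clock genes and the 23 tested genes of oligodendrocytes and myelin. Black points have an unadjusted p under 0.05 and grey points do not. Bmal1 (-0.60) and Per2 (0.72) are at opposite ends of the clock genes, and 18 of the 23 myelin genes lie left of 0.

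Oligodendrocytes wrap axons in myelin, and their genes are among the most abundant in a region rich in fibre tracts. Of 23 tested members 0 changed 1.7-fold, 18 averaged lower in MM, 5 were lower with an unadjusted p under 0.05 and 0 higher, and the median was -0.17. For comparison, 2.01% of all tested probes were lower with an unadjusted p under 0.05. Tspan2, a tetraspanin of oligodendrocytes, gave 4070, 4850 and 3750 units in SS and 2800, 3000 and 3220 in MM (-0.49, SE 0.10, adjusted p = 0.687). Mal, a proteolipid of compact myelin, gave 9940, 9400 and 8640 against 6080, 7260 and 6430 (-0.50, SE 0.12, adjusted p = 0.76). Car2, carbonic anhydrase 2, gave 7260, 6980 and 7480 against 5730, 5750 and 5900 (-0.32, SE 0.09, adjusted p = 0.8). Each of the 3 had its groups fully apart, which follows in part from naming them by small p or after their values were seen. In the whole list 26.1% of tested members lay fully below and 0 fully above, against 4.56% and 5.55% of all tested probes.

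Cldn11, the claudin of myelin tight junctions, averaged 2780 ± 299 in SS and 2000 ± 479 in MM, where MM replicate 3 (2540 units) overlapped the SS arrays. Cnp, a myelin phosphodiesterase, averaged 12900 ± 1400 and 10900 ± 184. Car2, Cldn11 and Cnp were named after their values were seen. Opalin, a membrane protein of oligodendrocytes, averaged 728 ± 39 and 483 ± 206, with overlapping groups, and at -0.69 had the largest difference of the list without passing the test. Mbp, a major protein of compact myelin, averaged 8250 ± 1530 and 6580 ± 885, and Mog, a protein of the outer myelin surface, 6010 ± 143 and 5800 ± 515, also with overlap. The summed signal of the 23 members ran from 98300 to 108000 units in SS and from 89000 to 91200 in MM, with no overlap. Tspan2 averaged 2880 ± 26.4 in SM and 3880 ± 165 in MS. Mal averaged 8570 ± 463 in SM and 9310 ± 1090 in MS, and MM lay below SM by 0.38 on the log2 scale (difference -0.38, SE 0.12, adjusted p = 1). The ratios as deposited, without scaling by the array median, moved the median of all probes by 0.08 and that of the myelin list to -0.10.

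Stress response genes gave small differences. Of 32 tested heat shock and chaperone genes 26 averaged higher in MM (median 0.17), where 52.8% of all tested probes did. Only Hspb2 rose (3.12% of the list, against 0.805% of all tested probes). Hspb2, a small heat shock protein of the kind that binds unfolded proteins, was at 0 on all SS arrays and at 1.93, 6.31 and 3.38 units in MM, so its call rests on signals under 10 units, and on log2 of the signal plus 16 units the difference was 0.31 (SE 0.12). Rbm3 and Cirbp, RNA-binding proteins induced by cold, were placed in the same list and were lower. Rbm3 gave 450, 479 and 442 units in SS and 318, 358 and 272 in MM (-0.54, SE 0.17, adjusted p = 0.951), and Cirbp 757, 730 and 644 against 561, 515 and 561 (-0.38, SE 0.14, adjusted p = 1). Chordc1 and Stip1, co-chaperones of HSP90, were higher, at 0.42 (adjusted p = 1) and 0.28 (adjusted p = 1). In these 4 genes, named after their values were seen, the groups did not overlap. In the whole list 18.8% of tested members lay fully above and 9.38% fully below, against 5.55% and 4.56% of all tested probes. Among 32 tested genes of endoplasmic reticulum stress 0 changed (median 0.04). Sdf2l1 and Derl3, which take part in folding and in degradation of misfolded proteins, averaged 56.2 ± 5.05 and 40.3 ± 7.47 in SS and 83.4 ± 10.2 and 59.0 ± 8.77 in MM.

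Of 35 tested antioxidant genes, many of them targets of NRF2, 28 averaged higher (median 0.10), 1 rose and 0 fell. Over all tested probes 52.8% averaged higher. Every MM array lay above every SS array in 5.71% of the list and below in 2.86%, against 5.55% and 4.56% of all tested probes. The member that rose, Slc7a11, the cystine transporter, was at 0 on all SS arrays and at 6.92, 1.69 and 0 units in MM, and was lost without MM replicate 1 (1.94) or 2 (2.96). Cat, catalase, gave 408, 355 and 492 units in SS and 526, 565 and 546 in MM (0.39, SE 0.13, adjusted p = 0.976). Nqo1, a quinone reductase, averaged 843 ± 105 and 1110 ± 165, Txnrd2, a mitochondrial thioredoxin reductase, 334 ± 36.5 and 412 ± 20.6, and Sod3, the extracellular superoxide dismutase, 336 ± 22.2 and 447 ± 93.4, each with an unadjusted p under 0.05. Gstp1, a glutathione transferase, averaged 6780 ± 772 and 5250 ± 581 (-0.37, adjusted p = 0.976), but its other tested probe differed by 0.03. These 5 genes were named after their values were seen. Sod1 averaged 11800 ± 1650 and 11900 ± 138 units, Sod2 1300 ± 45.3 and 1360 ± 113, Gpx1 1410 ± 189 and 1540 ± 53.6, and Hmox1 236 ± 37.9 and 289 ± 27.2, with overlapping groups in all 4.

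Immediate early genes, which mark recent neuronal activity, had 0 changed of 18 tested (median 0.00). Fos averaged 147 ± 28.1 in SS and 161 ± 66.7 units in MM, Jun 263 ± 19.2 and 247 ± 22.3, and Junb 231 ± 32.5 and 233 ± 24.3. Changes were also 0 among 42 genes of oxidative phosphorylation (median 0.03), 18 of glycolysis, 31 of the proteasome, 27 of apoptosis, 30 potassium and sodium channels, 18 astrocyte markers and 15 chromatin genes. With 1.61% of all tested probes changed, 0 is a usual count for lists of this size. Among 31 synaptic vesicle genes Syngr4 and Syt2 fell (6.45%, against 0.805% of all tested probes), and the list median was -0.01. Syngr4, a synaptogyrin, averaged 19.4 ± 4.98 and 10.8 ± 4.48 units and Syt2, a calcium sensor of release, 14.1 ± 2.64 and 7.96 ± 3.09, both dim. Syngr4 was lost without SS replicate 3 or 4 or MM replicate 1 or 3 (-0.81 to -0.70), and Syt2 without SS replicate 2 or 4 or MM replicate 3 (-0.91 to -0.54). Among 48 transmitter receptors Chrm1 fell, from 2.66 ± 0.974 units to 0 on all MM arrays (median -0.08), and Grik1, a kainate receptor subunit named after its values were seen, gave 259, 245 and 226 units in SS and 301, 336 and 335 in MM (0.41, SE 0.14, adjusted p = 1). Among 23 trophic factors and receptors Areg rose, at 2.14, 0 and 0 units in SS and 7.56, 7.77 and 2.33 in MM, a call lost without SS replicate 3 or 4 or MM replicate 1 or 2 (3.38 to 3.81). Vegfa, an angiogenic factor named after its values were seen, averaged 79.0 ± 3.76 and 59.3 ± 9.31 (-0.43, adjusted p = 1). Map3k6, the 1 changed member of 23 glucocorticoid-responsive genes, was at 0 on all SS arrays and at 2.33, 2.93 and 5.94 units in MM.

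**Figure D5:**
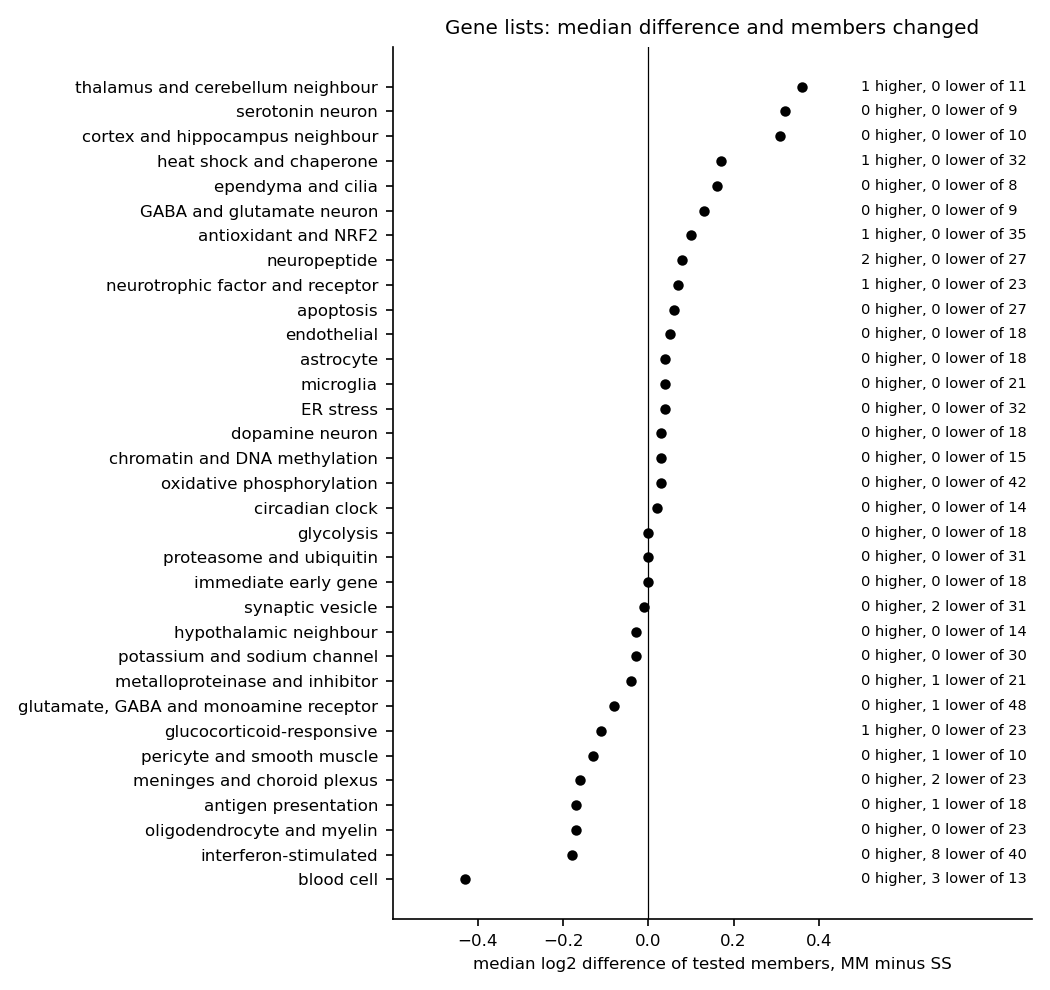
Median log2 difference between MM and SS over the tested members of each of 33 gene lists (points), with the number of members changed in each direction at right. The blood cell list has the lowest median (-0.43), and the interferon-stimulated list has the most changed members (8 of 40).

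The remaining named genes with small p-values were dim. Serinc2, which takes part in serine incorporation into lipids, gave 15.0, 13.7 and 15.0 units in SS and 42.2, 29.6 and 84.2 in MM (3.24-fold, adjusted p = 0.8). It kept its 1.7-fold difference on log2 of the signal plus 16 units (1.07). Capsl, a calcium-binding protein, gave 24.9 to 25.9 units in SS and 75.1, 43.2 and 41.2 in MM (1.02, adjusted p = 0.8), and missed 1.7-fold without MM replicate 1 (0.74). Cbln2, a synapse organizer of the cerebellin family, gave 22.1, 12.9 and 26.6 against 4.99, 5.79 and 9.32 (-1.60, SE 0.40, adjusted p = 0.794), with SM at 17.9 and MS at 14.1 units. Its second probe differed by -0.50. Rag1, a recombinase of lymphocytes, averaged 17.8 units in SS and 8.19 in MM, Oas1f, of the antiviral 2-5A synthetase family, 14.4 and 2.44, and Or4f61d, an olfactory receptor of a family with many near-identical members, 14.6 and 5.70. Arhgef39, Krt4, Ccn5 and Yipf6 averaged 13.5, 11.9, 13.8 and 9.43 units in SS and 25.2, 26.2, 28.6 and 19.9 in MM. For Arhgef39 the second probe differed by 0.01, and the call was lost without SS replicate 2 (0.72) or MM replicate 2 (0.71). Each of these 10 genes had its groups apart, which follows in part from picking them by small p in this same comparison. Over all tested probes 5.55% lay fully above and 4.56% fully below. For Serinc2 and Cbln2 the difference between MM and SM was 1.14 and -1.36 (adjusted p = 1 for both).

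The smallest p of any probe with a gene name was that of Hyal5 (adjusted p = 0.0842), a sperm hyaluronidase, which was at 0 on all 10 arrays outside MM and at 1.45, 3.59 and 2.10 units in MM. Il1a, the cytokine interleukin 1 alpha, was likewise at 0 on those 10 arrays and at 2.90, 6.16 and 0.583 units in MM. All these means are under 10 units, where the within-group SD had a median of 2.71 units, and no fold is given. Both probes entered the test only through the MM arrays, since 3 arrays above the floor were required. The other 10 arrays share the same floor value, so the small p-values are partly built in. On log2 of the signal plus 16 units Hyal5 differed by 0.20 (SE 0.10) and Il1a by 0.25 (SE 0.12). Other changed probes under 10 units in both groups were those of Ccr6, Lpar2, Pip5k1c and Ptprm, which averaged 9.66, 6.45, 2.81 and 2.73 units in MM and 1.11, 0, 0 and 0 in SS, and that of Rab11fip4, at 4.46 units in SS and 0 in MM, whose second probe differed by -0.06. Pip5k1c and Hspb2 were above the limit on fewer than 3 arrays outside MM, and Rab11fip4 and Chrm1 on fewer than 3 outside SS. These probes too entered the test only through the group where they were high. Olr1143, Sypl2 and Rpl36a, which did not change, averaged under 10 units in both groups, and Gdnf was at the limit on all 13 arrays.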

How the data were processed

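RNA of 13 rats was hybridized to Illumina RatRef-12 BeadChips (22523 probes). Signals were extracted in BeadStudio and globally normalized in GeneSpring by the authors, and the deposited value is a ratio of each probe to its own median over arrays, with a lower limit of 0.01 that 28.2% of values share. Signals in units were recovered here from the whole-number steps of these ratios. A probe was treated as dim only where all its values above the limit lay within 0.02 of a step. The match of all 29735 such values is therefore built in and is no check of the units. The recovery gives no detection call, and the number of arrays limits the precision.

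Ratios were divided by the array median (0.77 to 0.952), raised to a floor of 0.012 (the 25th percentile), put on the log2 scale and fitted with limma (version 3.58.1, under R 4.3.3), using all 13 arrays, 4 group means and a trended prior. The 17140 probes that exceeded the floor on 3 or more arrays were tested. Folds of dim genes depend on the floor. p-values were adjusted by Benjamini-Hochberg, and p-values printed for single genes are adjusted values of this limma fit, whereas the calls and the counts at p under 0.05 use unadjusted values. Only the limma fit and the calling rule were run on simulated data, with changes added to probes above the limit on all 13 arrays. That run did not cover unit recovery, array scaling, the floor, the filter or changes in probes at the limit.

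Probes were named by the platform annotation, 13793 with 1 symbol and 8730 without, and 13772 of the symbols are in the current rat annotation. The probe with the highest mean stood for a gene. Genes named are those the study discusses, the 12 with the smallest p in each direction above the floor in the brighter group, the 10 in each direction with a brighter group of at least 64 units, up to 4 changed members of each list (or the 2 with the smallest p), and monoamine and level controls. Members, lists and genes were chosen with earlier results of these data known. Same-numbered arrays were not taken as pairs. Other scalings, floors, filters, blocks and left-out arrays were tried.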

Additional observations from a re-analysis of the deposited data

Results flagged for a closer look

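Per2 read 1080 units on MS replicate 4, far above the other 3 MS arrays, which lay at 653, 672 and 671 units. With 4 arrays a group, the gap relative to the range passed a threshold that chance alone passes in about 1 of 20 groups. The MS arrays do not enter the difference between MM and SS except through the shared estimate of the spread.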

How the results depend on the processing

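Against 276 changed probes in the fit reported, 58 changed on log2 of the recovered signal plus 16 units (38 up and 20 down), of which 39 were among the 276, and 138 changed (64 up and 74 down) when probes at the limit on any array were left out, by construction fewer tested. Other settings gave 240 to 346 changed probes. Leaving out 1 array gave 259 to 351 changed, 99 to 226 up and 108 to 173 down, the highest count of increases without SS replicate 2. On the signal plus 16 units the interferon-stimulated list had 5 changed members and the blood cell list a median of -0.25, and the blood cell median was -0.63 with probes above the limit on all arrays. The myelin median was -0.10 on the ratios as deposited. With 1 array left out, interferon-stimulated members changed numbered 4 to 8, with medians from -0.31 to -0.16, and medians ran from -0.59 to -0.28 for blood cells and from -0.20 to -0.12 for myelin. The cause was not tested. No named gene with an unadjusted p under 0.05 turned its direction under any setting. Of 50 named changed genes 14 met the criterion on the signal plus 16 units, a scale that by construction shrinks the folds of dim probes. Residuals of same-numbered arrays of different groups had a median correlation of 0.084, and 6 of 15 such pairs were over 0.1. For differently numbered arrays, taken in subsets by number, the medians were -0.0095 and -0.0385. These values do not settle whether replicate numbers pair the arrays. A replicate block gave 346 changed probes, 171 of them up. 0 probes had an adjusted p under 0.05 in the limma fit reported, against 714 at an unadjusted p under 0.05, and 0 to 3 did so under the alternatives.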
